A study of Mus musculus with 6 samples.

Results

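The genes described here are 48 genes that act in the G2 phase and in mitosis, the steps of the cell cycle in which a cell prepares to divide and then separates its chromosomes. They were taken by symbol from a table of 27734 genes, and all 48 were found, each as 1 row. RNA sequencing measured them in rib chondrocytes, the cells that build cartilage, of E18.5 mouse embryos, collected straight after enzyme digestion. There were 3 libraries from Jab1 flox/flox; Col2a1-Cre embryos, called mutant here, in which Cre driven by the Col2a1 promoter deletes floxed Jab1 in cartilage cells, and 3 libraries from wild-type embryos, for which the labels give no further allele. The gene symbol of Jab1 is Cops5, and its protein is the catalytic part of the COP9 signalosome, which removes the ubiquitin-like protein Nedd8 from cullin ligases, and the comparison asks what its loss changes in these cells. The labels do not say whether a library is 1 embryo or a pool, nor name the litters, so the p-values cover the spread among these 6 libraries alone, and that spread can be technical.

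A dividing cell makes the mRNAs of its mitotic machinery in a wave that begins in late S phase and peaks in mitosis. In resting cells these genes are held off by the DREAM complex, and in cycling cells its MuvB core joins the transcription factors B-Myb and FoxM1 and switches them on. MuvB reads a short promoter element, the cell cycle genes homology region (CHR), which often lies near CCAAT boxes bound by the factor NF-Y. In the growth plate, mitotic mRNAs mark the proliferating, columnar chondrocytes, which stop dividing before they enlarge.

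The libraries are named by group and column number. Column totals ranged from 574007 to 620054 FPKM, a fragment count scaled to gene length and to the mapped fragments of the library, in mutant libraries and from 571180 to 631534 FPKM in wild-type libraries. Cops5 measured 17.0, 18.0 and 17.2 FPKM in mutant libraries, against 42.3, 39.8 and 40.1 FPKM in wild-type libraries (limma adjusted p = 0.00065). The date in the title of wild-type column 0 differs from that in every other title. Mutant column 0 stood apart from the other mutant libraries in sex-linked RNA. The Y-linked gene Ddx3y measured 7.78, 46.1 and 36.0 FPKM in mutant columns 0, 1 and 2, against 0.157, 0.0281 and 0.450 FPKM in wild-type columns 0, 1 and 2, and Xist measured 37.3, 0.0176 and 0.0244 FPKM against 63.1, 64.6 and 65.9 FPKM, so sex-linked RNA and genotype cannot be told apart. Mutant column 0 was the only library with both Ddx3y and Xist above 1 FPKM, and whether it mixes embryos of both sexes was not tested. Of 16 chondrocyte markers 13 were analysed and all 13 had a mean of at least 1 FPKM.

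Promoters were searched for the CHR and the CCAAT box, features the choice of genes did not use. RefSeq promoter sequences (build GRCm38.p6, 250 bases before to 50 bases after each listed start) were matched by symbol for 40 of the 48 genes. The other 8 were Aurkb, Ccna2, Cdc25c, Foxm1, Incenp, Kif20a, Smc4 and Tpx2. A CHR, searched on both strands as TTTGAA or TTCGAA, lay in the window of 31 of the 40 genes, against 21.7% of the 27025 genes in the promoter table. A CCAAT box, searched on both strands as CCAAT, lay in 30 of the 40, against 41.1% of that table, and 27 of the 40 held both, against 8.61%. The motifs were searched separately, so matches can overlap. In a list of 46 S-phase genes, of which 36 had a promoter entry, 8 held a CHR, 21 a CCAAT box (58.3%) and 5 both. Of 148 other mitotic genes, described below, 117 had a promoter entry. A CHR lay in 41.9% of those 117, a CCAAT box in 55.6% and both in 28.2%, so both lists also exceeded the whole promoter table for the CCAAT box. Of the genes with an entry, 6 held neither motif: Birc5, Mad2l1, Ncaph, Nuf2, Nusap1 and Pttg1. Gtse1, Ccnb1 and Cenpe held a CCAAT box but no CHR. For 4 of the 40 genes, Cdca8, Kif2c, Kif4 and Pttg1, the searched window lies wholly inside the gene as GENCODE annotates it, so it does not reach the sequence before that start. The window of Mad2l1 instead ends at 66535270, before the annotated start at 66535390, so the bases next to that start were not searched. The promoters of 5 genes show these forms over the 120 bases that end just before the start, with CHR and CCAAT matches in capitals. Cdk1, Cdc20, Kif11 and Ube2c hold both motifs, while Gtse1 is shown because its RNA values departed from the rest of the set, a choice made after the values were seen. A match is a run of letters, not a bound site.
Cdk1, chr10:69352913-69353032, minus strand: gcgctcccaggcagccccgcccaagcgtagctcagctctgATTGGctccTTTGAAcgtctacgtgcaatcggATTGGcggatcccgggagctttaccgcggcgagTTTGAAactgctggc
Cdc20, chr4:118437344-118437463, minus strand: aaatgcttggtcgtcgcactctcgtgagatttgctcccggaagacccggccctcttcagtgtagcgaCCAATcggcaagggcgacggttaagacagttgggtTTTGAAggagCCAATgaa
Kif11, chr19:37376262-37376381, plus strand: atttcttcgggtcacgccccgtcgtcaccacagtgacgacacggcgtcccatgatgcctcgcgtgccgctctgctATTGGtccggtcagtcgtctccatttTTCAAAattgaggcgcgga
Ube2c, chr2:164769809-164769928, plus strand: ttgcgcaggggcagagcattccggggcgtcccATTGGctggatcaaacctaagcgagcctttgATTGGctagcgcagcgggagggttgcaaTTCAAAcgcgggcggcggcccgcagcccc
Gtse1, chr15:85859587-85859706, plus strand: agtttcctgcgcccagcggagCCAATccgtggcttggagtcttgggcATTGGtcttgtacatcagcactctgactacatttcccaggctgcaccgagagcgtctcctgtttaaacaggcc

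Gtse1, a microtubule-binding protein gene of G2, was higher in mutant chondrocytes, and no difference between genotypes passed the test for the other 47 genes. Of the 48 genes, all of which passed the filter on low values, 47 did not pass, 1 was called higher in mutant cells and 0 lower (limma on log2(FPKM + 1), Benjamini-Hochberg adjusted p under 0.05 over 14012 genes). Over all genes tested 6.07% passed, 3.48% higher and 2.59% lower in mutant cells. At an unadjusted p under 0.05 the count was again 1 of 48, against 24.7% of all genes tested. The median log2 fold change of the 48 genes, mutant over wild type, was -0.07, beside -0.004 over all genes tested, with 10 genes above 0 and 38 below. With a Y-linked covariate, the level of Ddx3y, the median was 1 and 37 of the 48 genes changed sign. Within a genotype Ddx3y varied mainly between mutant column 0 and mutant columns 1 and 2. That fit therefore rests mostly on the contrast of mutant column 0 with the other mutant libraries, and it cannot separate genotype from sex-linked RNA. The direction of the set cannot be told apart from sex-linked RNA. Values of the groups did not overlap for 1 of the 48 genes, against 32.2% of all genes tested. The limma 95% interval stayed within 1 of 0 on the log2 scale for 46 of the 48 genes. The exceptions were Gtse1 and the centromeric histone gene Cenpa, whose interval ran from -0.58 to 1.01. The median distance from the estimate to either end of its interval was 0.53 for these genes and 0.31 over all genes tested. These intervals are not adjusted for the number of genes tested. For a typical gene of the set, an estimate 0.53 from 0 therefore matched an unadjusted limma p of about 0.05. A call needed a larger estimate, since 24.7% of all genes tested had an unadjusted p under 0.05 and 6.07% passed after adjustment.

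**Figure D1:**
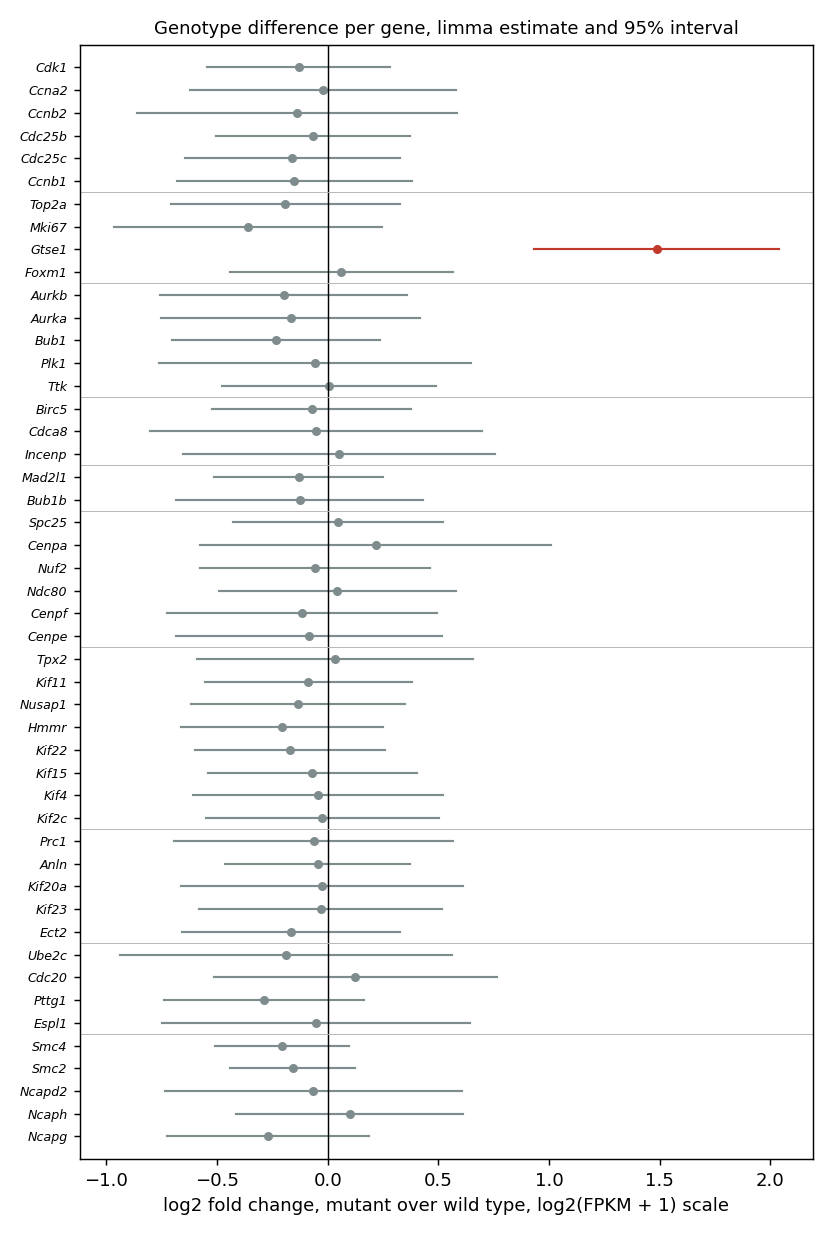
Log2 fold change of each gene, mutant over wild type on the log2(FPKM + 1) scale (x axis), with the limma 95% interval as a line; genes run down the page by role, from cyclins to condensin, and red marks an adjusted p under 0.05. Gtse1 stands alone at 1.49, while the other 47 estimates lie between -0.36 and 0.22 and their intervals include 0.

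Gtse1 was the gene that rose. Its protein binds microtubules and the plus-end protein EB1, accumulates in G2, and helps to bring p53 down as cells recover from a G2 arrest; the mouse gene was first described as B99, a gene induced by p53. It lies on chromosome 15, from 85859745 to 85876573 (mm10, plus strand), and overlaps no other annotated gene. Gtse1 measured 20.3, 10.46 and 13.6 FPKM in mutant columns 0, 1 and 2, against 4.17, 4.72 and 4.50 FPKM in wild-type columns 0, 1 and 2. Every mutant library lay above every wild-type library. Means were 14.8 ± 5.02 FPKM in mutant and 4.46 ± 0.276 FPKM in wild-type libraries (SD, n = 3 each), and the limma log2 fold change was 1.49 with an SE of 0.23 and an adjusted p of 0.026. The call was lost in 4 of the 6 fits that left out 1 library: the limma adjusted p was 0.093 with mutant column 2 left out (log2 fold change 1.52), and with wild-type column 0, 1 or 2 left out it was 0.098, 0.088 or 0.099 (log2 fold changes 1.45, 1.52 and 1.49). The fit that leaves out wild-type column 0 holds libraries of 1 title date. Without mutant column 0 it still passed, at 1.25 (limma adjusted p = 0.021). With a Y-linked covariate the log2 fold change was 2.89 (limma adjusted p = 0.0498). The call was also lost with the replicate number as a block (1.49, limma adjusted p = 0.12) and without column 0 of both groups (1.21, limma adjusted p = 0.074).

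The set did vary, but between libraries of the same genotype. Mutant column 0 was the highest mutant library for 47 of the 48 genes, against 41.6% of all genes tested, and it was above all 5 other libraries for 36 of the 48, against 24.2%. Mutant column 2 was the lowest mutant library for 40 of the 48 genes. In wild type, column 0 was the highest library for 42 of the 48 genes, against 33.3% of all genes tested, and column 1 the lowest for 41. The median of log2(FPKM + 1) minus the wild-type mean, taken over the 48 genes, was 0.36, -0.23 and -0.32 in mutant columns 0, 1 and 2, and 0.20, -0.18 and -0.005 in wild-type columns 0, 1 and 2. The same median over all genes tested stayed between -0.02 and 0.01 in every library. Mutant columns 1 and 2 lay below the wild-type mean and mutant column 0 above it, and the wild-type libraries also lay on both sides of it.

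**Figure D2:**
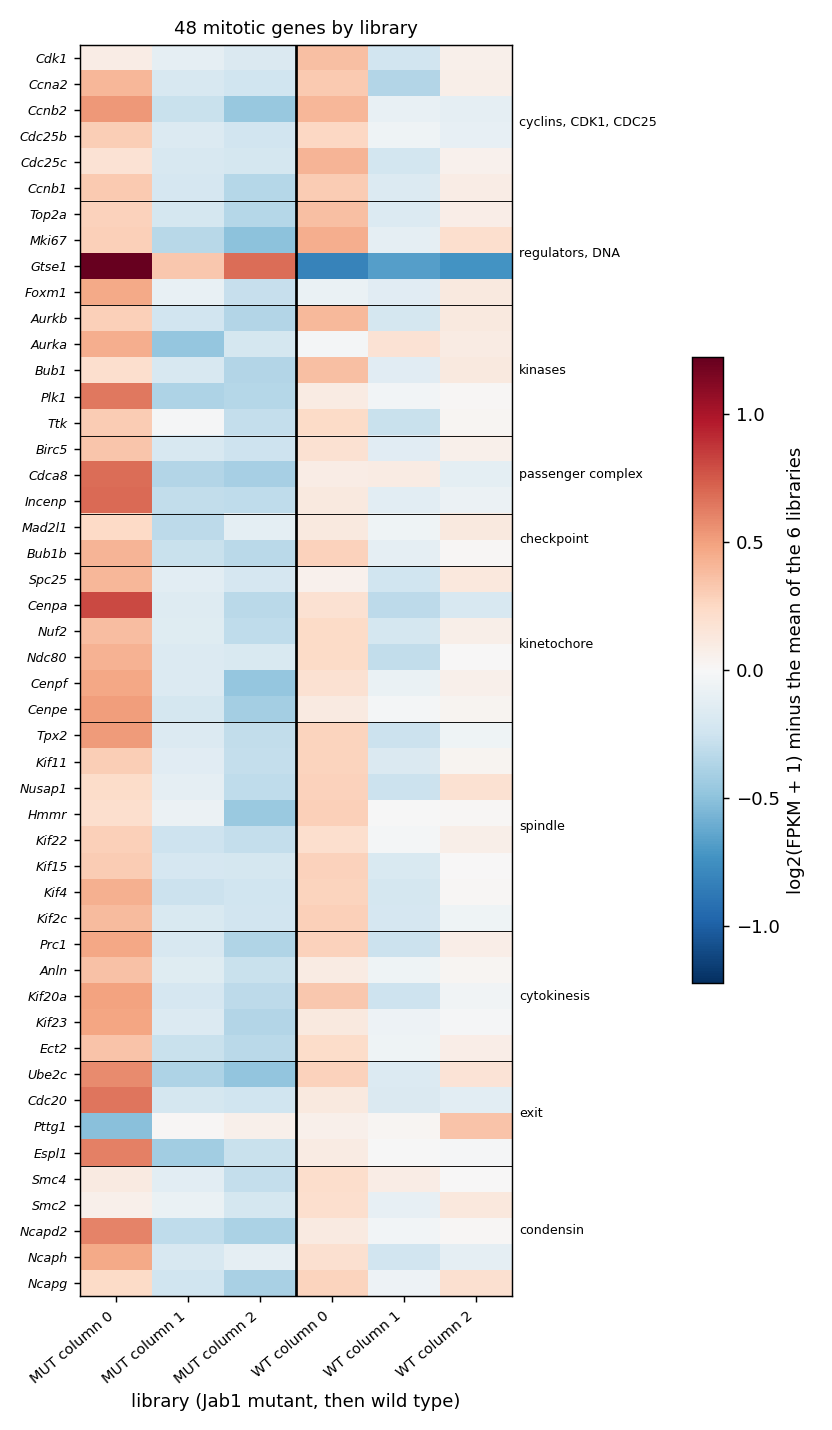
Log2(FPKM + 1) minus the mean of the 6 libraries for each of the 48 genes (rows, by role) in the 3 mutant and 3 wild-type libraries (columns); red is above and blue below the gene's own mean. Mutant column 0 and wild-type column 0 are red for most genes, Gtse1 separates the genotypes, and Pttg1 is the 1 gene that is lowest in mutant column 0.

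The spread was wider in mutant than in wild-type libraries. The SD of the FPKM values was larger in mutant libraries for 44 of the 48 genes, against 59.4% of all genes tested. The median coefficient of variation over the 48 genes was 29.1% in mutant and 15.5% in wild-type libraries, and the highest library exceeded the lowest by a median of 1.66-fold in mutant and 1.33-fold in wild type. Leaving out mutant column 0, both remaining mutant libraries lay below all wild-type libraries for 29 of the 48 genes, against 24.0% of all genes tested, and above them for 1, Gtse1, against 22.3%. The median log2 fold change was then -0.28, and limma called none of the 48 genes lower. Leaving out wild-type column 0 instead, 0 genes were separated downward, against 21.3% of all genes tested, and the median log2 fold change was -0.002. Leaving out mutant column 1 or mutant column 2 gave medians of 0.007 and 0.06, so the sign of the set's median changed with the libraries used.

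Cell type markers also differed between the libraries, and their part in the mitotic levels was not tested. The 13 chondrocyte markers summed to 12075, 7777 and 7470 FPKM in mutant columns 0, 1 and 2, against 11516, 12803 and 10983 FPKM in wild-type columns 0, 1 and 2, and 2 of them, Comp and Matn3, fell in mutant libraries. Mutant column 0, with the highest mitotic levels, also had the highest mutant sum. In wild type the order differed: column 1, the lowest library for most mitotic genes, had the highest sum. Of 6 endothelial markers, none of which was called and of which Kdr, Tek and Flt1 averaged under 1 FPKM, the sums were 1.45, 9.38 and 10.5 FPKM in mutant and 2.61, 5.08 and 4.34 FPKM in wild-type columns 0, 1 and 2. Osteoblast markers (5, none called) summed to 33.7, 72.2 and 200 FPKM in mutant and 54.5, 88.0 and 162 FPKM in wild-type columns 0, 1 and 2. Fibroblast markers (10, of which 2 fell) summed to 1014, 1579 and 1093 FPKM in mutant and 1484, 1722 and 1759 FPKM in wild-type columns 0, 1 and 2. Macrophage and osteoclast markers (8, of which 6 reached a mean of 1 FPKM and none was called) summed to 84.9, 126 and 295 FPKM in mutant and 89.0, 114 and 140 FPKM in wild-type columns 0, 1 and 2. The sums of these 4 lists were lowest in column 0 of each genotype, where the mitotic genes were highest. Every endothelial marker was lowest in column 0 of each genotype, but several markers of the other lists did not follow their sums. In mutant libraries the fibroblast markers Col1a2, Col3a1, Postn and Tnmd and the osteoblast marker Dmp1 were not lowest in column 0. In wild type the fibroblast marker Lum, at 662 FPKM, and the macrophage marker Cd14 were highest in column 0. Dcn, Lyz2 and Bglap were among those not lowest there. The erythroid sum was also lowest in column 0 of each genotype. The granulocyte, muscle, adipocyte and lymphocyte sums were not lowest in column 0 of both genotypes. Granulocyte and muscle sums were highest of the mutant libraries in mutant column 0, at 7.15 and 11.3 FPKM. Of 11 erythroid markers 6 reached a mean of 1 FPKM and were tested. Of these, 5 fell in mutant libraries and 1, Tfrc, rose. Tfrc measured 46.8, 61.6 and 61.3 FPKM in mutant columns 0, 1 and 2, against 32.6, 34.4 and 37.3 FPKM in wild-type columns 0, 1 and 2. It made up much of the mutant erythroid sum, so that sum understates the fall of the other 5. The erythroid sum was 61.9 to 111 FPKM in mutant and 229 to 256 FPKM in wild-type libraries, while Klf1, a defining transcription factor gene of that lineage, was under 1 FPKM in the mean. Granulocyte markers (8, of which 2 fell) summed to 1.09 to 7.15 FPKM in mutant and 66.3 to 194 FPKM in wild-type libraries, with Elane, Prtn3, Ngp, Ltf and Camp under 1 FPKM in the mean. Adipocyte markers (5, of which 1 rose) summed to 19.1 to 31.8 FPKM in mutant and 11.4 to 18.4 FPKM in wild-type libraries. Of 10 muscle markers 4 reached a mean of 1 FPKM and were tested, and none passed, with sums of 2.58 to 11.3 FPKM in mutant and 8.90 to 20.3 FPKM in wild-type libraries. Of 4 lymphocyte markers 1 was tested and did not pass, with sums of 0.534 to 0.850 FPKM in mutant and 1.40 to 3.33 FPKM in wild-type libraries. In bulk RNA of this kind, fewer dividing cells and less mitotic RNA per dividing cell cannot be told apart.

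Mitotic entry is driven by CDK1 with cyclins A2, B1 and B2, after CDC25 phosphatases remove the inhibitory phosphates from CDK1. Of these 6 genes none passed, with log2 fold changes from -0.16 to -0.02. Cdk1, the most abundant of the 48 genes per length, measured 72.9, 63.7 and 60.6 FPKM in mutant columns 0, 1 and 2, against 89.1, 58.2 and 71.5 FPKM in wild-type columns 0, 1 and 2. The mutant values lay inside the wild-type range. Ccna2 measured 53.6, 34.9 and 33.9 FPKM in mutant and 50.3, 31.1 and 42.3 FPKM in wild-type columns, again with overlap (adjusted p = 0.97 in limma). Ccnb2 measured 22.3, 12.3 and 10.7 FPKM in mutant columns and 20.3, 14.2 and 13.9 FPKM in wild-type columns, with column 0 highest in both groups and the other mutant columns just below the other wild-type columns. Ccnb1, its close relative, was among the lowest of the set, at 2.51 to 4.57 FPKM in mutant and 2.97 to 4.51 FPKM in wild-type libraries. Ccnb1, Ccnb2, Kif4 and Kif22 each have a named pseudogene in the annotation, and the counting could split reads between copies. Cdc25b and Cdc25c measured 4.64 to 7.20 and 4.01 to 5.56 FPKM in mutant libraries, against 5.18 to 6.89 and 3.96 to 6.75 FPKM in wild-type libraries.

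Among the regulators and DNA proteins, Foxm1 drives many of the other genes of the set, Mki67 encodes the Ki-67 protein that coats mitotic chromosomes and marks cycling cells, and Top2a encodes the enzyme that untangles sister DNA. Mki67 had the lowest log2 fold change of the 48 genes, at -0.36, with an SE of 0.25 (adjusted p = 0.42 in limma). It measured 40.3, 25.7 and 22.8 FPKM in mutant columns 0, 1 and 2, against 44.9, 30.2 and 37.7 FPKM in wild-type columns 0, 1 and 2. Its groups overlapped through mutant column 0, and without that library the log2 fold change was -0.60. Foxm1 measured 8.02, 5.13 and 4.40 FPKM in mutant and 5.19, 4.97 and 6.13 FPKM in wild-type columns 0, 1 and 2 (log2 fold change 0.06). Top2a measured 52.0 to 81.1 FPKM in mutant and 59.5 to 86.3 FPKM in wild-type libraries.

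**Figure D3:**
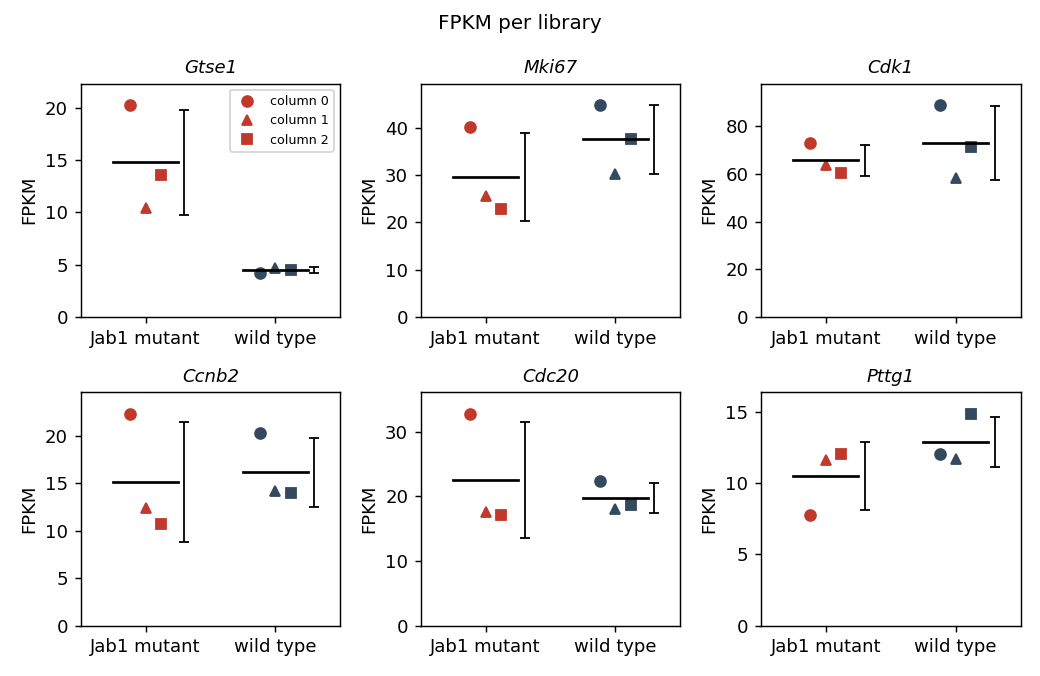
FPKM per library for Gtse1, Mki67, Cdk1, Ccnb2, Cdc20 and Pttg1 in mutant (red, left) and wild-type (dark, right) libraries; symbols give the column number, horizontal lines the mean and bars the SD (n = 3 each). Only in the Gtse1 panel do the groups not overlap, and column 0 is the highest mutant library in every panel but Pttg1, where it is the lowest at 7.73 FPKM.

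None of the 5 mitotic kinase genes passed (log2 fold changes from -0.23 to 0.01). Plk1, whose kinase acts from centrosome maturation to cytokinesis, measured 10.01, 4.44 and 4.53 FPKM in mutant columns 0, 1 and 2, against 6.57, 5.91 and 6.12 FPKM in wild-type columns 0, 1 and 2. The wild-type values were close together and lay between mutant column 0 and the other mutant columns. Aurka, the kinase of the spindle poles, measured 14.1, 6.98 and 8.56 FPKM in mutant and 9.91, 11.5 and 10.9 FPKM in wild-type columns 0, 1 and 2, one of 6 genes not highest in wild-type column 0. Aurkb, the kinase of the chromosomal passenger complex, ranged from 12.8 to 20.7 FPKM in mutant and from 14.2 to 22.2 FPKM in wild-type libraries. Bub1 and Ttk, kinases of the spindle checkpoint, ranged from 7.22 to 11.1 and 4.83 to 7.80 FPKM in mutant libraries, against 8.56 to 12.6 and 4.90 to 7.38 FPKM in wild-type libraries.

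The other passenger complex genes, Incenp, Birc5 and Cdca8, encode the scaffold, survivin and borealin that place Aurora B at centromeres. None passed, with log2 fold changes from -0.07 to 0.05. Cdca8 measured 19.6, 9.03 and 8.69 FPKM in mutant columns 0, 1 and 2, against 12.7, 12.7 and 10.8 FPKM in wild-type columns 0, 1 and 2. Incenp measured 19.4, 9.25 and 9.22 FPKM in mutant and 12.7, 10.6 and 11.1 FPKM in wild-type columns 0, 1 and 2. For both genes mutant column 0 lay above every wild-type library and mutant columns 1 and 2 below every one. The checkpoint genes Bub1b and Mad2l1, whose proteins hold back the anaphase-promoting complex until chromosomes are attached, had log2 fold changes of -0.13 each and did not pass.

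At the kinetochore, the structure that joins chromosomes to microtubules, none of 6 genes passed. Cenpa, which encodes the histone that marks the centromere, measured 26.4, 13.1 and 11.5 FPKM in mutant columns 0, 1 and 2, against 16.9, 11.6 and 12.7 FPKM in wild-type columns 0, 1 and 2. Its log2 fold change of 0.22 was the highest of the genes that did not pass (SE 0.32, limma adjusted p = 0.72), and the mutant libraries bracketed the wild-type ones. Ndc80, Nuf2 and Spc25 encode subunits of the NDC80 complex that grips microtubules, and had log2 fold changes of 0.04, -0.06 and 0.05. Cenpe, a motor of the kinetochore, and Cenpf, a coat protein, had -0.08 and -0.11.

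None of the 8 spindle genes passed, with log2 fold changes from -0.21 to 0.03. They encode the motors Kif2c, Kif4, Kif11, Kif15 and Kif22 and the microtubule proteins Tpx2, Nusap1 and Hmmr. Kif11, the motor that pushes spindle poles apart, measured 15.2 to 23.5 FPKM in mutant and 16.5 to 23.0 FPKM in wild-type libraries, and Tpx2, an activator of Aurora A, 16.5 to 30.0 and 17.0 to 25.04 FPKM. Of the cytokinesis genes Kif20a, Kif23, Prc1, Anln and Ect2, which build the central spindle and the contractile ring, none of 5 passed (log2 fold changes from -0.17 to -0.03). Prc1, which bundles the midzone microtubules, measured 35.2, 21.8 and 19.2 FPKM in mutant and 30.8, 20.7 and 26.5 FPKM in wild-type columns 0, 1 and 2.

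Genes of mitotic exit showed the widest spread among mutant libraries together with the passenger complex genes. Highest over lowest mutant library was a median of 2.03-fold for the 4 exit genes and 2.10-fold for the 3 passenger genes, against 1.25-fold and 1.21-fold among wild-type libraries. Cdc20, the activator of the anaphase-promoting complex, measured 32.8, 17.6 and 17.1 FPKM in mutant columns 0, 1 and 2, against 22.3, 18.1 and 18.7 FPKM in wild-type columns 0, 1 and 2. Ube2c, the ubiquitin-conjugating enzyme of that complex, measured 33.6, 16.9 and 15.7 FPKM in mutant and 27.2, 19.7 and 25.2 FPKM in wild-type columns 0, 1 and 2. Espl1, which encodes separase, the protease that opens cohesin rings, measured 5.74, 2.26 and 2.63 FPKM in mutant and 3.71, 3.36 and 3.34 FPKM in wild-type columns 0, 1 and 2. In all 3 genes mutant column 0 was above, and mutant columns 1 and 2 below, every wild-type library. Its 2.54-fold range gave Espl1 the widest mutant spread of the 48 genes, while Cdk1, at 1.205-fold, had the narrowest. Pttg1, which encodes securin, the inhibitor of separase, had the opposite order among mutant libraries. It measured 7.73, 11.6 and 12.1 FPKM in mutant columns 0, 1 and 2, against 12.03, 11.7 and 14.9 FPKM in wild-type columns 0, 1 and 2 (log2 fold change -0.29, limma adjusted p = 0.39), and was the 1 gene lowest in mutant column 0.

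Condensin packs chromosomes for mitosis, through the paired ATPases Smc2 and Smc4 and the condensin I subunits Ncapd2, Ncapg and Ncaph. None of these 5 genes passed, with log2 fold changes from -0.27 to 0.10. Smc4 measured 52.3, 44.1 and 39.1 FPKM in mutant columns 0, 1 and 2, against 56.3, 51.4 and 48.4 FPKM in wild-type columns 0, 1 and 2 (log2 fold change -0.21, limma adjusted p = 0.36). This was the smallest adjusted p after that of Gtse1, and only mutant column 0 overlapped the wild-type range. Ncapd2 measured 25.1, 12.8 and 12.1 FPKM in mutant columns, against 17.5, 15.8 and 16.4 FPKM in wild-type columns 0, 1 and 2. The order of levels over the whole set ran from Cdk1, with a mean over the 6 libraries of 69.3 FPKM, and Top2a at 67.8 FPKM, whose ranges overlapped, to Ccnb1 at 3.53 FPKM and Espl1 at 3.51 FPKM.

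A further 149 genes of the same processes were taken from lists of the anaphase-promoting complex, mitotic entry, kinetochore, spindle and centrosome, cytokinesis, condensin II and cohesin, and DREAM, MuvB and NF-Y. Of these 148 were tested, 2 rose, 1 fell and 145 did not pass, and their median log2 fold change was -0.05. Among all genes tested, 3.48% rose and 2.59% fell. The first gene counted as higher was Bub3, a checkpoint protein, which measured 57.1, 46.8 and 54.3 FPKM in mutant libraries while every wild-type library lists it at 0. An exact 0 of a gene that every dividing cell uses can be a failed estimate, so no fold is given. The other was Psrc1, a spindle protein that promotes microtubule depolymerization by kinesin-13 motors and was described in mouse cells as the p53-induced gene DDA3. Psrc1 measured 22.8, 18.0 and 23.2 FPKM in mutant columns 0, 1 and 2, against 8.12, 8.11 and 6.66 FPKM in wild-type columns 0, 1 and 2 (log2 fold change 1.37, SE 0.13, limma adjusted p = 0.0072). Its groups did not overlap and it passed with any 1 library left out, and with Y-linked RNA as a covariate the log2 fold change was 1.80 (limma adjusted p = 0.123). Tubg1, gamma-tubulin, which nucleates microtubules at the centrosome, fell to 10.7 ± 0.610 FPKM in mutant libraries, against 14.4 ± 0.844 FPKM in wild-type libraries (SD, n = 3 each; log2 fold change -0.39, limma adjusted p = 0.042), and with any 1 library left out the log2 fold change was between -0.43 and -0.35 but did not pass (adjusted p 0.073 to 0.14).

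No gene passed in limma among 17 genes of the anaphase-promoting complex and its partners (an unadjusted p under 0.05 in 1 that was higher and 2 that were lower), 14 genes of mitotic entry (0 and 1), 9 of cytokinesis (0 and 0), 15 of condensin II and cohesin (1 and 0) and 17 of DREAM, MuvB and NF-Y (3 and 0). An unadjusted limma p under 0.05 was reached by 18 of all 148 further mitotic genes, against 24.7% of all genes tested. Anapc5, the most abundant of the first list, measured 125 to 138 FPKM in mutant and 126 to 142 FPKM in wild-type libraries. Arpp19, an inhibitor of the phosphatase that opposes CDK1, measured 96.4 to 143 FPKM in mutant and 98.7 to 141 FPKM in wild-type libraries. The cohesin subunits Stag2 and Rad21 measured 46.6 to 53.8 and 30.3 to 46.9 FPKM in mutant libraries, against 46.6 to 51.2 and 41.4 to 43.9 FPKM in wild-type libraries. Highest over lowest mutant library was a median of 1.66-fold for the 48 genes, against 1.17-fold for the anaphase-promoting complex list, 1.15-fold for condensin II and cohesin and 1.56-fold for the further cytokinesis genes. The difference in spread between lists was not tested.

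S-phase genes, which act in the step before G2, were compared to show where the library pattern differed. Of 46 genes of DNA replication none passed in limma (an unadjusted p under 0.05 was reached by 3 that were higher and 2 that were lower), and the median log2 fold change was 0.04. That unadjusted limma p was reached by 24.7% of all genes tested. In mutant libraries, column 0 was the highest for 47 of the 48 mitotic genes, against 18 of the 46 S-phase genes. In wild-type libraries, column 0 was the highest for 42 of the 48 mitotic genes, against 41 of the 46 S-phase genes. Highest over lowest library was a median of 1.66-fold in mutant and 1.33-fold in wild type for the mitotic genes, against 1.15-fold and 1.27-fold for the S-phase genes. Leaving out mutant column 0, both remaining mutant libraries lay below all wild-type libraries for 29 of the 48 mitotic genes, against 3 of the 46 S-phase genes. Mcm6, a subunit of the replicative helicase and the highest of the list, measured 80.9, 86.7 and 91.9 FPKM in mutant columns 0, 1 and 2, against 77.1, 63.5 and 61.2 FPKM in wild-type columns 0, 1 and 2 (limma adjusted p = 0.12), while Pcna, the replication clamp, measured 53.9, 45.1 and 46.9 FPKM against 47.3, 34.9 and 40.8 FPKM (limma adjusted p = 0.31). The difference between these lists was not tested, since genes are not replicates.

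**Figure D4:**
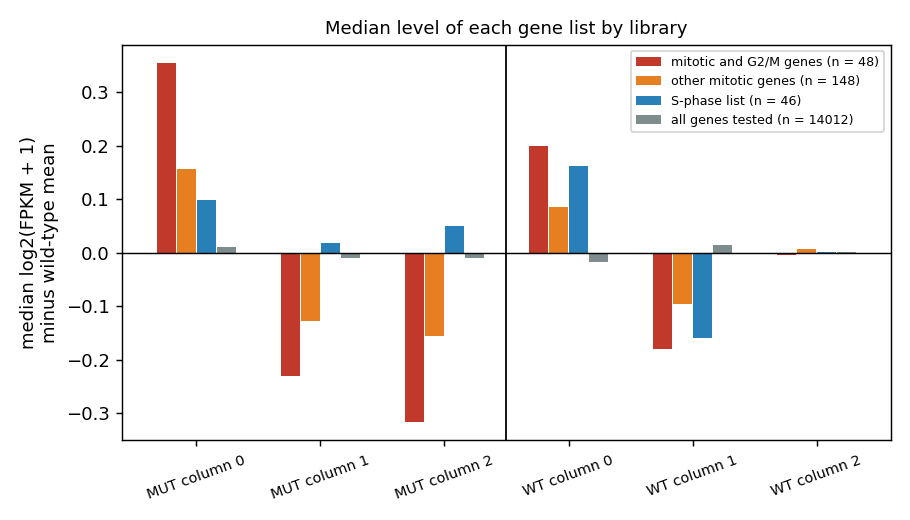
Median over each gene list of log2(FPKM + 1) minus the wild-type mean (y axis) in each mutant and wild-type library (x axis), for the 48 mitotic and G2/M genes, 148 other mitotic genes, 46 S-phase genes and all 14012 genes tested. The mitotic bars are 0.36, -0.23 and -0.32 in mutant columns 0, 1 and 2, while the S-phase bars stay between 0.02 and 0.10 there, and all genes stay near 0.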

How the data were processed

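The values are FPKM as the authors deposited them, in 1 table with a column per library. STAR, Cufflinks, Cuffdiff and build mm10 are named in the submitters' processing notes. Per the labels' protocols, ribosomal RNA was removed, strand-specific libraries were made from total RNA and 50000000 single-end reads of 50 bases were produced per sample, and CLC Genomics Workbench is also named. Versions, settings and whether Cuffdiff scaling was applied are not given in the sources used here, nor is strand use in counting. Of the 48 genes, 28 overlap another annotated gene on either strand. No counting intervals are given, since read counts were not analysed here. Columns were matched by group and number, per the file headers. The descriptions number libraries 0, 1 and 3 and the columns 0, 1 and 2, which leaves column 2 of each group matched to its group alone. Gene IDs matched GENCODE M21 (same build) for 99.4% of rows, and 27 symbols that were whole numbers were replaced by its names.

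FPKM were transformed as log2(FPKM + 1), which understates changes of low genes. The 14012 genes whose mean over all 6 libraries reached 1 FPKM entered limma 3.58.1 under R 4.3.3 (lmFit with genotype, then eBayes with trend), two-sided, with Benjamini-Hochberg adjustment over all genes tested. The code was tested on simulated data. "Rose" and "fell" mean an adjusted p under 0.05. Members and lists were chosen with earlier results of these data known. Any of the 48 genes could be named, and of each further list the called genes and the 2 most abundant, of which only some are given. Pairing of same-numbered columns was checked by the correlation of deviations from group means over all genes, and it is not used. Alternatives were other pseudocounts, filters, scalings, variance priors and library weights, a Y-linked covariate, protein-coding genes only, a replicate block and leaving out libraries. Leaving out column 0 of both groups, and Bub3, was added after seeing the data.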

Additional observations from a re-analysis of the deposited data

How the results depend on the processing

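Other pseudocounts, a mean of at least 5 FPKM, median-of-ratios and quantile scaling and a robust variance prior changed no call and no sign among the genes of the set that could be tested. The log2 fold change of Gtse1 stayed above 0 in all 18 alternatives, from 1.21 to 2.89, the highest with the Y-linked covariate. Its call was lost with the replicate block, without column 0 of both groups and in most fits that left out 1 library. Genes called over the whole table numbered 461 without a filter, 1488 with library weights, 140 with a Y-linked covariate, 1373 among protein-coding genes only, 60 with the replicate block and 116 without column 0 of both groups, an alternative chosen after seeing the data. Of the 48 genes, 2 were called higher with the Y-linked covariate (Gtse1, and Cdca8 at a limma adjusted p of 0.0499), 0 with the replicate block and 0 without column 0 of both groups. The covariate fit rests mostly on mutant column 0, so its sign changes and the Cdca8 call are not a separate estimate of the genotype difference. Of the further mitotic genes, 1 was called higher with the Y-linked covariate, with the block and without column 0 of both groups. With the covariate and with the block it was not Psrc1, whose limma adjusted p was 0.123 and 0.0778. Leaving out Bub3, also chosen after seeing the data, 1 was called higher, and this was Psrc1. Further mitotic genes called lower numbered 4 with library weights and 2 among protein-coding genes. They numbered 0 without a filter, with the Y-linked covariate, with the block and without column 0 of both groups.

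Same-numbered columns share only a number: their deviations from the group means correlated at -0.0328, -0.0421 and -0.0226 over all genes for numbers 0, 1 and 2. With the replicate block the log2 fold changes of Gtse1, Psrc1 and Tubg1 were 1.49, 1.37 and -0.389, as without it, and the limma adjusted p was 0.12, 0.0778 and 0.148.

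With the Y-linked covariate the median log2 fold change of the set was 1 and 37 genes changed sign, none but Cdca8 passing: Ccna2 1.02, Ccnb1 0.867, Ccnb2 1.52, Cdk1 0.215, Cdc25b 0.89, Cdc25c 0.489, Mki67 0.845, Top2a 0.762, Plk1 1.79, Aurka 1.35, Aurkb 0.789, Bub1 0.559, Birc5 0.913, Cdca8 1.97, Bub1b 1.17, Mad2l1 0.73, Cenpe 1.39, Cenpf 1.26, Nuf2 0.961, Kif2c 1.04, Kif4 1.18, Kif11 0.793, Kif15 0.857, Kif22 0.85, Nusap1 0.505, Hmmr 0.587, Kif20a 1.3, Kif23 1.3, Prc1 1.21, Anln 0.952, Ect2 0.983, Ube2c 1.55, Espl1 1.77, Ncapd2 1.68, Ncapg 0.659, Smc2 0.154, Smc4 0.39. With library weights the sign changed for Foxm1 -0.113, Ttk -0.0599, Incenp -0.134, Ndc80 -0.0703, Spc25 -0.105, Tpx2 -0.0816, Cdc20 -0.0245, and without column 0 of both groups for Foxm1 -0.18, Ttk -0.027, Incenp -0.207, Ndc80 -0.0316, Spc25 -0.106, Tpx2 -0.0749, Cdc20 -0.0787. Leaving out each library in turn, calls numbered 0 to 1 higher in the set, 0 to 1 lower among the further mitotic genes and 174 to 666 over all genes. The sign changed for 33 genes, whose log2 fold changes ranged as follows: Foxm1 -0.155 to 0.215, Ttk -0.147 to 0.15, Incenp -0.279 to 0.218, Cenpa -0.132 to 0.433, Ndc80 -0.158 to 0.17, Spc25 -0.143 to 0.165, Tpx2 -0.218 to 0.193, Cdc20 -0.168 to 0.281, Ncaph -0.106 to 0.224, Ccna2 -0.229 to 0.133, Cdc25b -0.234 to 0.0436, Plk1 -0.391 to 0.118, Aurka -0.429 to 0.0289, Birc5 -0.261 to 0.0358, Cdca8 -0.405 to 0.139, Cenpe -0.359 to 0.105, Nuf2 -0.261 to 0.0844, Kif2c -0.222 to 0.118, Kif4 -0.275 to 0.078, Kif15 -0.244 to 0.0568, Kif20a -0.276 to 0.134, Kif23 -0.281 to 0.139, Prc1 -0.315 to 0.106, Anln -0.233 to 0.0775, Espl1 -0.377 to 0.146, Ncapd2 -0.384 to 0.114, Ccnb2 -0.438 to 0.0613, Bub1b -0.366 to 0.0086, Cenpf -0.38 to 0.0943, Kif11 -0.26 to 0.0377, Ube2c -0.524 to 0.00395, Cdk1 -0.281 to 0.0222, Cdc25c -0.313 to 0.00912. The cause of these changes was not tested.

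Read counts were not analysed here, so counting error is not known, and 3 libraries in each group limit the precision. Protein levels and the share of dividing cells were not measured.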
